A study of Mus musculus with 6 samples.

Results

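Histone lysine methylases and demethylases, the enzymes that write and erase methyl groups on histone tails, were examined in macrophages of Day 3 skin wounds from young and aged mice. Members were taken from the table of gene counts by their symbols, as the KDM demethylases (erasers) and the KMT2, KMT5, SETD, SETMAR, SUV39H, EZH, EHMT, NSD, DOT1L, ASH1L, SMYD and PRDM2 methylases (writers). This gave 50 of the 15168 genes listed, of which 15 were erasers and 35 were writers. All 50 passed the filter on low counts and were among the 11878 genes tested. Kdm4d, Kdm5d and Smyd1 belong to the same families but are not among the genes listed, so they were not analysed here.

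The study compared wound macrophages of young and aged animals to ask which programmes of these cells change with age. The mice were female C57BL/6J, 12 weeks old in the young group and 24 months old in the aged group by the labels of the samples, and the protocols give wider ranges for both groups. No transgene was carried, both groups were wounded in the same way, and the cells were sorted as CD45+ CD11b+ F4/80+ CD64+ macrophages with no gate against Ly6G, a neutrophil protein. RNA of 3 young and 3 aged samples, each carrying a set letter A, B or C, was sequenced from small inputs with SMART-Seq v4. The sources do not say whether each sample came from 1 animal or a pool, so the p-values measure the spread between these samples.

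Histone lysine methylation works through the residue that carries it. Methylation of lysine 4 of histone H3 (H3K4) marks promoters and enhancers in use, H3K36 and H3K79 methylation cover transcribed genes, and H3K9 and H3K27 methylation are found at silenced ones. Writers take the methyl group from S-adenosylmethionine. Erasers are either flavin-dependent amine oxidases (the KDM1 enzymes) or Jumonji C oxygenases that use iron, oxygen and 2-oxoglutarate. In macrophages the H3K27 eraser Kdm6b (JMJD3) is known as a gene induced by inflammatory stimuli through NF-kB, and the H3K9 writer Setdb2 as a gene induced by interferon that restrains inflammatory genes.

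Total counts lay between 15270103 and 17927483 per sample, so that 1 count was worth 0.0553 to 0.0701 CPM (counts scaled to a common library size by the TMM method). The lowest count of any member in any sample was 5, and only Kdm8, Setd1a and Setd4 had fewer than 10 counts in a sample. Markers of macrophages were abundant in both groups, with the 11 listed genes summing to 34350–48840 CPM over the young samples and 25260–28980 CPM over the aged ones, and 2 of them were higher and 4 lower in aged samples by the edgeR test. Of 15 neutrophil markers 14 were tested and 4 were higher in aged samples, with sums of 719–1222 CPM over the young samples and 930–1591 CPM over the aged ones. Keratinocyte markers summed to 127 CPM in aged sample B and to no more than 2.03 CPM in any other sample, and fibroblast markers to 121 CPM in aged sample B against 12.4–41.6 CPM elsewhere. Dendritic cell markers summed to 16.5–55.4 CPM over the young samples and 31.7–94.0 CPM over the aged ones, with sample A the highest of each age, and endothelial markers to 11.8–12.7 and 25.9–31.3 CPM. Of the endothelial markers only Pecam1, which leukocytes also express, was higher in aged samples (log2 fold change 1.69, adjusted p = 0.00220), while Kdr and Vwf had log2 fold changes of -0.40 and -0.38 (adjusted p = 0.634 and 0.612). B cell markers summed to 60.4–157.8 CPM over the young samples and 22.9–40.5 CPM over the aged ones. Both tested B cell genes were lower in aged samples by edgeR (Ighm, log2 fold change -1.62, adjusted p = 0.0172, and Cd79b, -1.58, adjusted p = 0.0308). T and NK cell markers summed to 5.61–8.13 CPM over the young samples and 3.50–4.76 CPM over the aged ones. Of 3 tested, Cd4 alone passed, and was lower (log2 fold change -1.76, adjusted p = 0.0386, edgeR). Mast cell markers summed to 96.2, 47.2 and 26.5 CPM in young samples A, B and C. In aged samples A, B and C the sums were 67.2, 1.02 and 0.741 CPM, so the ages overlapped through aged sample A. In bulk RNA fewer cells of a type and less RNA per cell cannot be told apart, and the part of other cell types in the values below was not tested.

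Among the 50 members, 9 passed the test of aged against young samples (edgeR quasi-likelihood test, Benjamini-Hochberg adjusted p under 0.05 over all 11878 genes). This is 18% of the members, beside 17.7% of all genes tested. Of the erasers, 4 of 15 were higher in aged wound macrophages (Kdm1a, Kdm5c, Kdm6b and Kdm7a) and 0 were lower, where 9.73% of all genes were higher and 7.97% were lower. At an unadjusted p under 0.05, 8 erasers were higher and 0 lower, where 18.1% of all genes were higher and 16.5% lower. DESeq2 and limma-voom also gave 0 erasers lower. Of the writers, 2 of 35 were higher (Prdm2 and Kmt5a) and 3 were lower (Setdb2, Smyd2 and Ehmt2). With the added condition of a fold change over 2, which 8.79% of all genes met in either direction, the 4 members Kdm5c, Kdm6b, Setdb2 and Smyd2 were left. Kdm6b lay at that limit, with a log2 fold change of 1.003 that was 0.99 with at least 10 counts in every sample and 0.85 with spline trends on exon length and GC content, where Kdm5c was at 0.91. Limma-voom passed 8 erasers and 8 writers as higher and 5 writers as lower, where it passed 16.3% of all genes as higher and 14.4% as lower. EdgeR without young sample C passed 0 members, where it passed 1.24% of all genes as higher and 0.548% as lower.

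The primer pool with which the study pre-amplified cDNA holds a pair for each of these 4 transcripts, and the sequences are shown because they mark one stretch of each transcript. No PCR values were used here. Each sequence is written 5′ to 3′ as the study lists it, here in lower case with no part in capitals.
Kdm5c forward: acagtaagcggcacctaacc
Kdm5c reverse: gtggcacagtacagactgct
Kdm6b forward: ctgtacagacccccggaac
Kdm6b reverse: tggtggagaaaaggcctaagt
Setdb2 forward: gccaagtgagaggacaaagatt
Setdb2 reverse: cagagatttggacagcaactatga
Smyd2 forward: cgtgtttgaggacagcaatg
Smyd2 reverse: ggagtacacggggtagtgct
Placed on GENCODE M21 transcripts (mm10), the pairs enclosed 98 bases of Kdm5c, 83 of Kdm6b, 132 of Setdb2 and 145 of Smyd2, all within the coding sequence. The Kdm5c pair lay in exons 10 and 11 of Kdm5c-203 (chrX:152248789-152253489, plus strand) and both primers were found in 3 of 5 coding transcripts. The Kdm6b pair lay in exons 13 and 14 of Kdm6b-201 (chr11:69402261-69403639, minus strand), its 1 coding transcript. The Setdb2 pair ran from exon 13 to a reverse primer across exons 13 and 14 of Setdb2-201 (chr14:59406712-59409286, minus strand), found in 2 of 3 coding transcripts, and the Smyd2 pair lay in exons 10 and 11 of Smyd2-201 (chr1:189882196-189883946, minus strand), its 1 coding transcript.

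The flavin-dependent eraser Kdm1a (LSD1), which removes methyl groups from H3K4 within the CoREST complex, lies at chr4:136550540-136602724 (mm10). It was measured at 27.8, 27.6 and 26.4 CPM in young samples A, B and C and at 35.9, 46.8 and 44.0 CPM in aged samples A, B and C. The groups did not overlap, and the young samples lay close to their mean of 27.3 ± 0.80 CPM (SD, n = 3). Kdm1a rose by 0.63 on the log2 scale (SE, the standard error, 0.17, adjusted p = 0.0292, edgeR), a 1.55-fold increase. Its relative Kdm1b, the other flavin-dependent eraser, was at 4.70 ± 0.16 CPM in the young and 4.63 ± 1.77 CPM in the aged group, with a log2 fold change of -0.02 (SE 0.31, adjusted p = 0.973).

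Kdm5c removes methyl groups from H3K4 and is encoded on the X chromosome (chrX:152233020-152274536). It was at 15.1, 11.9 and 11.1 CPM in young samples A, B and C, against 21.7, 31.7 and 24.5 CPM in aged samples. Every aged sample lay above every young sample, and aged sample B was the highest. The means were 12.7 ± 2.10 and 25.9 ± 5.13 CPM, a log2 fold change of 1.03 (SE 0.21, adjusted p = 0.0133, edgeR). Its relatives Kdm5a and Kdm5b, which act on the same residue, had log2 fold changes of 0.54 (SE 0.21, adjusted p = 0.101) and 0.66 (SE 0.23, adjusted p = 0.0697). Neither passed by edgeR, and limma-voom passed both (adjusted p = 0.0260 and 0.0194). The groups did not overlap for any of the 3 KDM5 genes, as was so with aged samples higher for 19.2% of all genes tested.

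Kdm6b, the H3K27 eraser, was at 12.1, 8.39 and 10.4 CPM in young samples A, B and C and at 22.6, 16.8 and 22.4 CPM in aged samples (chr11:69398508-69413676). All aged samples were above all young ones, and set B held the lowest value of each age. The means were 10.3 ± 1.84 and 20.6 ± 3.34 CPM, a 2.00-fold increase (log2 fold change 1.003, SE 0.22, adjusted p = 0.0158, edgeR). Kdm6a (UTX), the X-linked eraser of the same mark, was at 11.8 ± 0.95 and 13.0 ± 3.27 CPM, with overlapping groups and a log2 fold change of 0.14 (SE 0.23, adjusted p = 0.699).

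Kdm7a, which removes methyl groups from H3K9 and H3K27 in repressed chromatin, was at 48.3, 29.4 and 32.4 CPM in young samples A, B and C and at 71.5, 71.4 and 68.0 CPM in aged samples (chr6:39136623-39206790). The aged samples were close together and young sample A lay between them and the other young samples. Kdm7a rose by 0.94 on the log2 scale (SE 0.20, adjusted p = 0.0156, edgeR). Of its exon bases, 2.85% are shared with the antisense gene 4930599N23Rik, and 4.11% of those of Kdm6b with Kdm6bos. Whether the counting used strand is not stated, so reads from these stretches cannot be assigned to one gene of the pair.

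**Figure D1:**
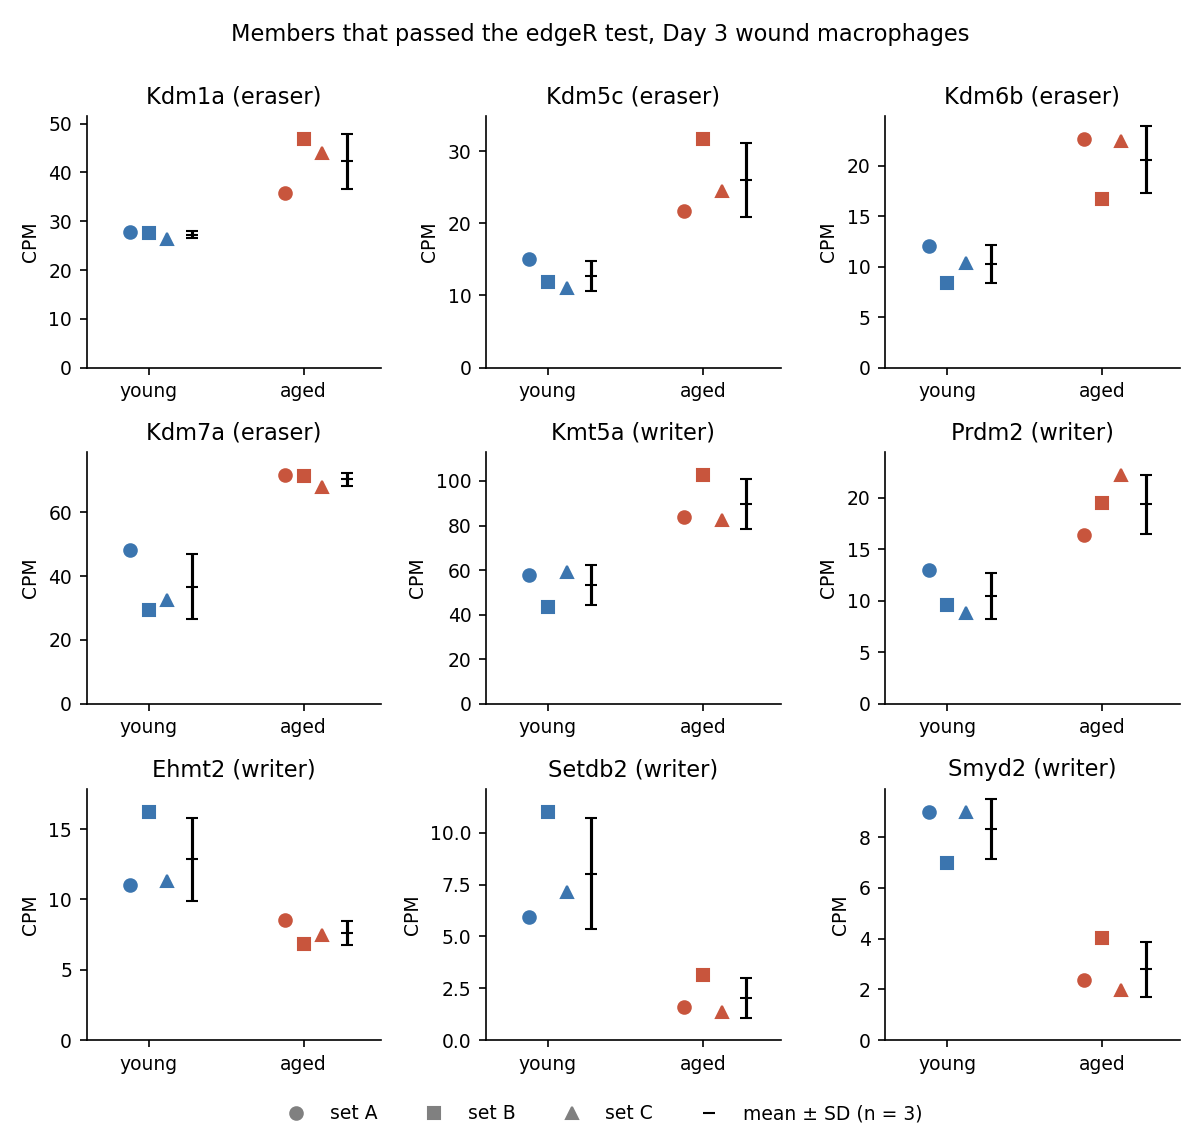
CPM of the 9 called members in each of the 3 young (blue) and 3 aged (red) samples, with the set letter as the symbol and mean ± SD in black; each panel has its own CPM axis starting at 0. The groups do not overlap in any panel, with Kdm1a, Kdm5c, Kdm6b, Kdm7a, Kmt5a and Prdm2 higher and Ehmt2, Setdb2 and Smyd2 lower in aged samples.

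No other eraser passed by edgeR with all 6 samples. Limma-voom also passed Kdm2a (adjusted p = 0.0379) and Kdm4b (0.0231), and edgeR passed Kdm2a without young sample A (0.0325). Of the H3K36 erasers, Kdm2a was at 18.4, 12.3 and 13.7 CPM in young samples and 19.5, 22.8 and 20.3 CPM in aged ones A, B and C, with a log2 fold change of 0.49 (adjusted p = 0.112), and Kdm2b had a log2 fold change of -0.31 (adjusted p = 0.478). Kdm3b, an H3K9 eraser, had the lowest log2 fold change of the erasers, -0.68 (SE 0.32, adjusted p = 0.157). Its values of 3.60, 6.10 and 4.23 CPM in young samples and 2.73, 2.42 and 3.52 CPM in aged ones did not overlap, but young sample A and aged sample C lay close together. Of its exon bases, 24.6% are shared with Gm26538 on the opposite strand. The KDM4 enzymes remove methyl groups from H3K9 and H3K36. Among them Kdm4b was at 5.53, 5.22 and 4.23 CPM in young samples and 8.41, 6.24 and 10.2 CPM in aged ones (log2 fold change 0.73, adjusted p = 0.0782), while Kdm4a and Kdm4c had log2 fold changes of 0.30 and 0.06 (adjusted p = 0.477 and 0.912) with overlapping groups. Kdm8, with 5 to 22 counts per sample, was at 0.853 ± 0.38 CPM in the young and 0.641 ± 0.30 CPM in the aged group (adjusted p = 0.645).

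Over the 15 erasers the median log2 fold change was 0.49, beside -0.02 over all genes tested, and 11 of 15 had a positive log2 fold change, as also with DESeq2 size factors. Groups did not overlap, with the aged samples higher, for 8 of 15 erasers, and with the aged samples lower for 1 of 15 (Kdm3b), where 19.2% and 19% of all genes did so. Fold changes over all genes also moved with exon length. All tested genes with a known length were put in 5 classes of equal size by exon length, and the median log2 fold change was -0.22, -0.14, -0.01, 0.08 and 0.22 from the shortest to the longest class. The class of the longest genes, at 7.22 kb or more, held 26 of the 50 members, erasers and writers together. Their median was 0.48, beside 0.22 over all genes of that class. Of the called erasers, Kdm7a (10.06 kb) lay in it. Kdm1a, Kdm6b and Kdm5c, at 5.18, 6.95 and 7.11 kb, lay in the class below, where the median of all genes was 0.08. Whether length caused the shift of the erasers was not tested. With spline trends on exon length and GC content in the fit, an alternative chosen after the data were seen, the median of the erasers was 0.23 and 9 of 15 were positive, while 4 erasers were still higher and 0 lower.

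**Figure D2:**
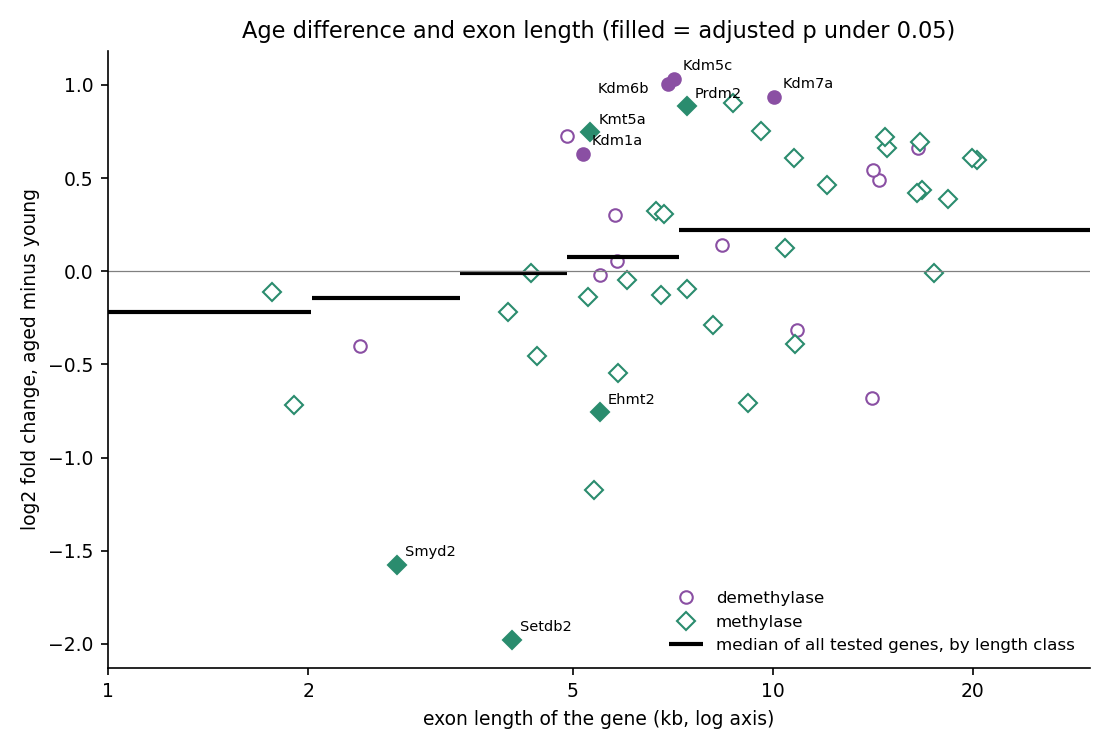
Log2 fold change (aged minus young, vertical axis) against exon length in kb (log axis) for the 15 demethylases (circles) and 35 methylases (diamonds), filled where the adjusted p was under 0.05; black bars give the median of all tested genes in each length class, the outer ones cut at the ends of the axis. The bars climb from -0.22 to 0.22, and Setdb2 and Smyd2 lie far below the bar of their own class.

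Setdb2, a writer of H3K9 methylation, was at 5.92, 11.03 and 7.13 CPM in young samples A, B and C and at 1.61, 3.12 and 1.36 CPM in aged samples (chr14:59402009-59440885). Set B held the highest value of each age, and the groups did not overlap. The means were 8.03 ± 2.67 and 2.03 ± 0.95 CPM. Setdb2 fell by 1.98 on the log2 scale (SE 0.38, adjusted p = 0.0113, edgeR), a 3.94-fold decrease and the largest difference of any member in this fit. Its relative Setdb1, which writes the same mark with its partner ATF7IP, was at 7.98 ± 0.37 CPM in the young and 9.90 ± 0.56 CPM in the aged group, with a log2 fold change of 0.31 (SE 0.20, adjusted p = 0.305).

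The remaining H3K9 writers differed from each other. Ehmt2 (G9a), which writes mono- and dimethylation, was at 11.01, 16.3 and 11.3 CPM in young samples and 8.55, 6.82 and 7.47 CPM in aged ones. Young sample B was the highest, and the groups did not overlap. Ehmt2 fell by 0.76 on the log2 scale (SE 0.23, adjusted p = 0.0483, edgeR), just under the threshold, and was over it with DESeq2 size factors (0.0512), without a filter on low counts (0.0575), with the set letter as a replicate block (0.0661) and in 5 of 6 fits with a sample removed (up to 0.165). Ehmt1, its partner in the same complex, had a log2 fold change of -0.29 (SE 0.25, adjusted p = 0.440). Prdm2 (RIZ) was at 13.0, 9.56 and 8.85 CPM in young samples and 16.4, 19.5 and 22.2 CPM in aged ones, with no overlap. It rose by 0.88 on the log2 scale (SE 0.22, adjusted p = 0.0242, edgeR). Suv39h1 and Suv39h2, which write H3K9 trimethylation in heterochromatin, had log2 fold changes of -0.14 and -0.45 (adjusted p = 0.761 and 0.460) with overlapping groups, and 14.6% of the exon bases of Suv39h1 are shared with the antisense gene Gm14820. Of the 7 H3K9 writers, 1 was higher and 2 were lower, beside 9.73% and 7.97% of all genes.

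Smyd2, which methylates histones and also other proteins such as p53, was at 9.02, 6.98 and 8.98 CPM in young samples A, B and C and at 2.38, 4.01 and 1.98 CPM in aged samples (chr1:189880492-189922364). Aged sample B was the highest aged sample and still below the lowest young sample. The means were 8.33 ± 1.17 and 2.79 ± 1.08 CPM, so that Smyd2 fell by 1.57 on the log2 scale (SE 0.31, adjusted p = 0.0122, edgeR), a 2.98-fold decrease. Of its exon bases, 30% are shared with the antisense gene Gm37422. Smyd3, a writer of H3K4 and H4K5 methylation that also acts on kinases, was at 9.10 ± 1.80 and 5.57 ± 1.44 CPM (log2 fold change -0.71, adjusted p = 0.0974 by edgeR and 0.0488 by limma-voom). Smyd5 and Smyd4 had log2 fold changes of -0.55 and -0.01 (adjusted p = 0.314 and 0.988) with overlapping groups.

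Kmt5a (SET8), the writer of H4K20 monomethylation, had the highest level of any member per length in both ages, at 10.1 ± 1.66 CPM per kb of exon in the young and 16.9 ± 2.12 CPM per kb in the aged group. It was at 57.6, 43.2 and 59.2 CPM in young samples A, B and C and at 83.8, 102.5 and 82.3 CPM in aged samples, with no overlap (chr5:124439930-124462309). Kmt5a rose by 0.75 on the log2 scale (SE 0.18, adjusted p = 0.0218, edgeR). Kmt5b and Kmt5c, which add further methyl groups to the same residue, had log2 fold changes of 0.72 (SE 0.26, adjusted p = 0.0803) and -0.22 (SE 0.26, adjusted p = 0.594). Young sample A of Kmt5b, at 22.6 CPM, lay next to the lowest aged sample at 22.8 CPM, and Kmt5b passed by limma-voom (adjusted p = 0.00864) and by edgeR without young sample A (0.00491).

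None of the 7 genes grouped as H3K4 writers passed by edgeR, with 0 calls. The group rests on gene symbols, and whether each of its genes, Kmt2e among them, writes this mark was not tested. Of the 7, 3 had an unadjusted p under 0.05 (Kmt2a, Kmt2c and Kmt2d), where 18.1% of all genes were higher at that p. Limma-voom passed these same 3 as higher (adjusted p = 0.0255, 0.0436 and 0.0291), where it passed 16.3% of all genes as higher. Of the 7, 6 had a positive log2 fold change, as had 5797 of the 11878 genes tested, and the median was 0.60, and with trends on length and GC content 5 were positive and the median was 0.27. Kmt2b had the largest, 0.75 (SE 0.40, adjusted p = 0.205), with 1.44, 1.06 and 1.12 CPM in young samples and 1.47, 2.48 and 2.16 CPM in aged ones A, B and C. The groups did not overlap, though young sample A and aged sample A were near each other. Kmt2a, Kmt2c and Kmt2d, the subunits that give the MLL complexes their activity, had log2 fold changes of 0.69, 0.60 and 0.61 (adjusted p = 0.125, 0.135 and 0.107). Setd1b, Kmt2e and Setd1a had 0.46, 0.12 and -0.13 (adjusted p = 0.514, 0.662 and 0.878). Of the exon bases of Setd1a, 51.8% are shared with the gene model Gm49388 on the same strand.

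Dot1l, the H3K79 writer, was at 14.3, 5.28 and 6.41 CPM in young samples A, B and C and at 16.6, 15.3 and 17.0 CPM in aged samples. Young sample A lay near the aged samples, and the log2 fold change was 0.91 (SE 0.33, adjusted p = 0.0841, edgeR). DESeq2 gave an adjusted p of 0.0429 for Dot1l and limma-voom 0.00722, and edgeR without young sample A gave 0.00312. Of the 6 H3K36 writers 0 passed by edgeR, 3 (Ash1l, Nsd3 and Setd2) were higher at an unadjusted p under 0.05 and limma-voom passed Ash1l (adjusted p = 0.0219), beside the same 18.1% and 16.3% of all genes. EdgeR passed Ash1l without young sample A (adjusted p = 0.0446), and Ash1l and Nsd2 with both samples of set A left out (0.0105 and 0.0184). By edgeR, Ash1l had the largest log2 fold change, 0.66 (SE 0.29, adjusted p = 0.129), with overlapping values of 10.7, 7.63 and 5.81 CPM in young samples and 9.11, 15.7 and 13.5 CPM in aged ones. Setd2, which writes trimethylation, had 0.61 (adjusted p = 0.115), Nsd2 0.44 (adjusted p = 0.258), Nsd3 0.42 (adjusted p = 0.0875), Nsd1 -0.01 (adjusted p = 0.983) and Setmar -0.11 (adjusted p = 0.866).

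Ezh2, the catalytic subunit of the polycomb complex PRC2 that writes H3K27 methylation, was at 7.14, 7.45 and 8.32 CPM in young samples and 6.31, 8.47 and 13.8 CPM in aged ones A, B and C. The groups overlapped, and the log2 fold change was 0.32 (SE 0.29, adjusted p = 0.461). Ezh1, which can take its place, had -0.09 (SE 0.28, adjusted p = 0.841). Among the remaining SETD proteins, Setd4 was at 1.22, 1.53 and 1.12 CPM in young samples and 0.771, 0.382 and 0.556 CPM in aged ones, which is 6 to 11 counts per aged sample. Its log2 fold change was -1.18 (SE 0.48, adjusted p = 0.109). Setd6, known for methylating the NF-kB subunit RelA, had -0.72 (SE 0.25, adjusted p = 0.0739), with means of 7.57 ± 1.51 and 4.59 ± 0.55 CPM and no overlap, and passed by limma-voom (adjusted p = 0.0209). Setd7, Setd5 and Setd3, the last known as a methylase of actin, had -0.39, 0.39 and -0.05 (adjusted p = 0.567, 0.242 and 0.875).

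**Figure D3:**
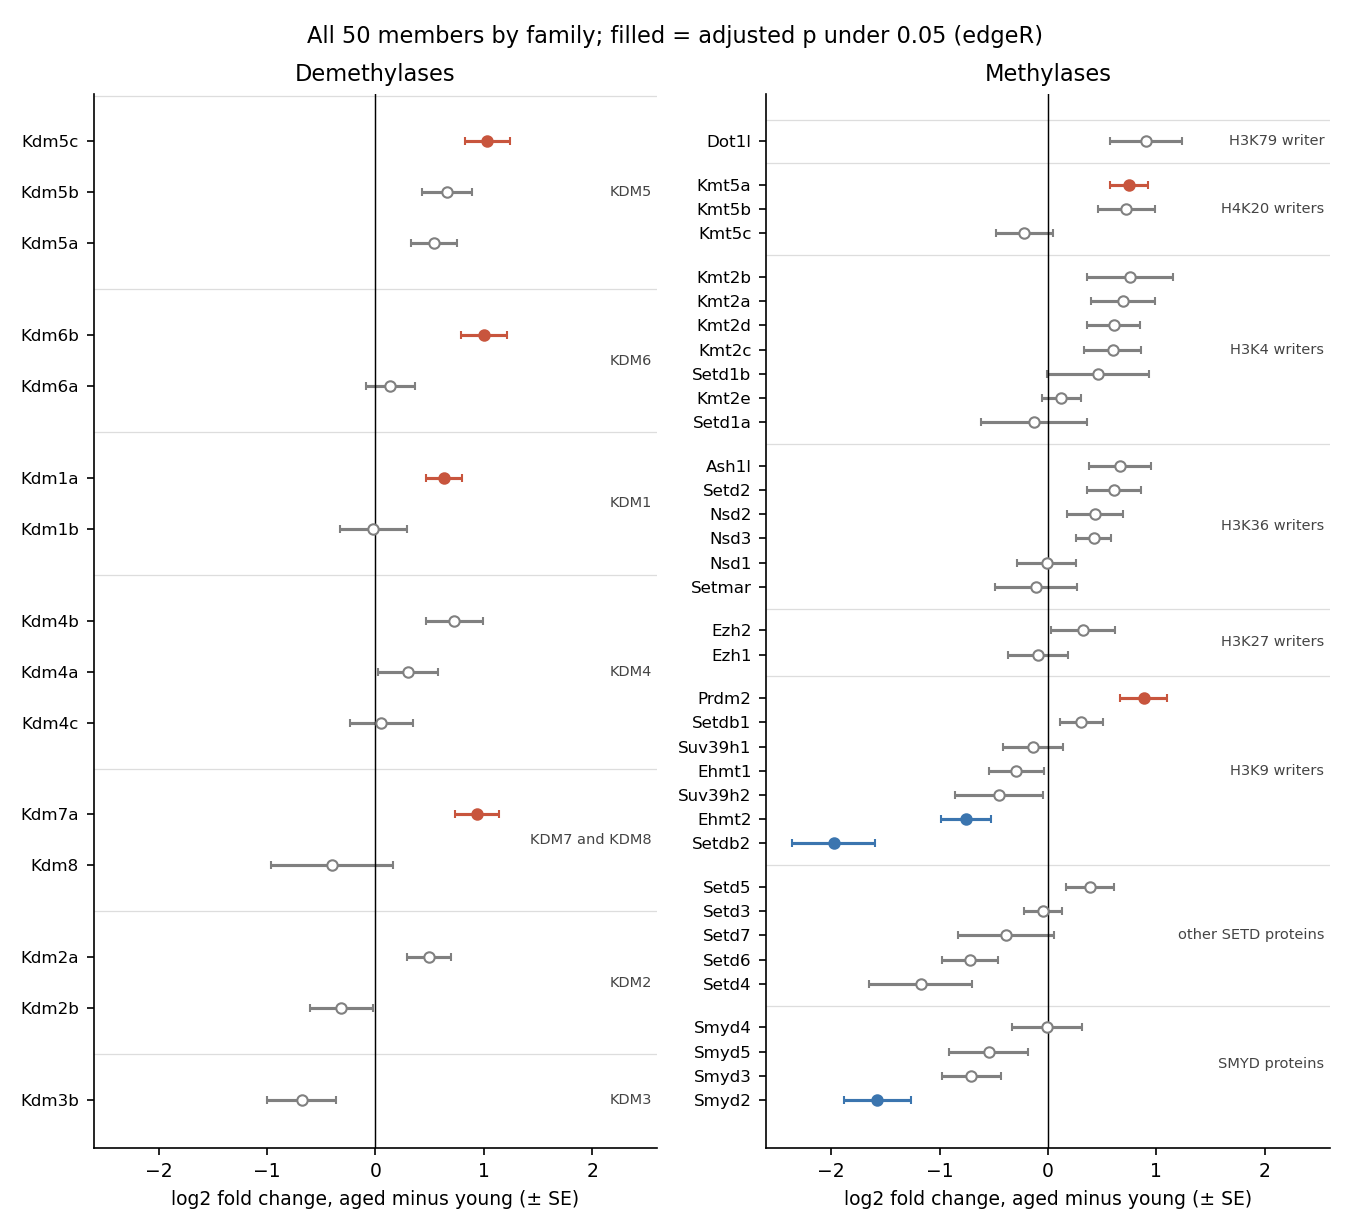
Log2 fold change (aged minus young) with its standard error for the 15 demethylases (left) and 35 methylases (right), grouped by family and residue, filled where the adjusted p was under 0.05. Most demethylases lie right of 0, with a median of 0.49, while methylases lie on both sides, from -1.98 for Setdb2 to 0.91 for Dot1l.

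Over the 35 writers the median log2 fold change was -0.01, with 17 positive and 18 negative values, a split that was 18 and 17 with DESeq2. Groups did not overlap for 10 writers with the aged samples higher and for 7 with the aged samples lower, which is 28.6% and 20% beside 19.2% and 19% of all genes. The samples of one age were not alike in these genes. Over all 50 members, young sample A was the highest young sample for 24, where it was so for 36.7% of all genes tested. Aged sample B was the highest aged sample for 30 of 50 members, where it was so for 35.5% of all genes tested.

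Compared per kb of exon within each age, Kmt5a came first in both. In the young group Setd3, Kmt2e and Kdm1a followed at 6.57 ± 1.13, 5.82 ± 0.79 and 5.27 ± 0.15 CPM per kb. In the aged group Kdm1a (8.16 ± 1.098), Kdm7a (6.99 ± 0.20) and Setd3 (6.35 ± 0.53 CPM per kb) followed. The genes named after Kmt5a for each age overlapped with their neighbours within 1 SD, while Kdm1a and the next gene in the young order, Setd6 (3.98 ± 0.79 CPM per kb), did not. Setdb2 took place 10 of the 50 in the young and place 40 in the aged group, at 1.98 ± 0.66 and 0.502 ± 0.24 CPM per kb, and Smyd2 places 7 and 28. Setd1b was the lowest in both ages, at 0.0734 and 0.102 CPM per kb.

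Differences between relatives were set side by side as log2 ratios of CPM within each sample (0.5 CPM added to each), for 7 pairs chosen after their values were seen. The ratio of Setdb2 to Setdb1 was -0.04 ± 0.40 for the young and -2.10 ± 0.50 for the aged samples, and that of Kdm6b to Kdm6a was -0.21 ± 0.32 and 0.66 ± 0.57. The ratio of Kdm1a to Kdm1b was 2.42 ± 0.08 for the young and 3.10 ± 0.44 for the aged samples. These 3 ratios did not overlap between the ages (exact two-sided permutation test, p = 0.1, the smallest that 3 against 3 samples allow, and 0.233 adjusted over the 7 pairs). The ratios of Kdm5c to Kdm5a and to Kdm5b, of Ehmt2 to Ehmt1 and of Smyd2 to Smyd3 overlapped, with exact permutation p of 0.2 or 0.3. By this permutation test no pair could reach a p under 0.05 with 3 against 3 samples.

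Subunits that work with these enzymes were followed as lists written with earlier results of these data known, and their counts stand beside the 9.73% higher and 7.97% lower over all genes tested. Of 11 tested subunits and partners of PRC2, 1 was higher and 1 lower, which is 9.09% each, with a median log2 fold change of -0.0007. Jarid2, which brings PRC2 to its targets, had a log2 fold change of 1.31 (adjusted p = 0.0283), and the histone-binding subunit Rbbp7 one of -0.67 (adjusted p = 0.0208). Of 15 subunits of the H3K4 writer complexes (COMPASS), Dpy30 and Ash2l were lower, with log2 fold changes of -1.08 (adjusted p = 0.00629) and -0.73 (adjusted p = 0.0207). Both are core subunits that raise the activity of the KMT2 enzymes. Hcfc2 was higher at 0.76 (adjusted p = 0.0386).

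Of 11 tested members of the CoREST list, the complex of Kdm1a, none was higher or lower by edgeR, with 0 calls, 1 unadjusted p under 0.05 and log2 fold changes from -0.79 for Rcor2 to 0.48 for Zmym2. Among 13 tested partners and readers of H3K9 methylation, Atf7ip, the partner of Setdb1, rose by 1.21 (adjusted p = 0.0106). The HUSH subunit Tasor and the reader Cdyl also rose, by 1.06 (adjusted p = 0.0317) and 0.97 (adjusted p = 0.0254), and the heterochromatin protein Cbx3 fell by 0.85 (adjusted p = 0.0340). The DOT1L list held 9 tested genes, among them transcription elongation factors, and its median was 0.87. The elongation factors Ell2, Aff1 and Aff4 rose by edgeR, with log2 fold changes of 1.25 (adjusted p = 0.00305), 1.20 (adjusted p = 0.00828) and 0.94 (adjusted p = 0.0318). Mllt1, Mllt3, Mllt6 and Mllt10 of this list did not pass. They had log2 fold changes of 0.64, -0.47, 0.94 and 0.05 (adjusted p = 0.178, 0.532, 0.139 and 0.902, edgeR). Of 12 other Jumonji C proteins, Hspbap1 rose by 1.09 (adjusted p = 0.00837) and Jmjd8 fell by 0.93 (adjusted p = 0.0227). Of 15 tested enzymes that make, use or recycle the methyl donor, its product or 2-oxoglutarate and its relatives, 2 were lower and 0 higher. The isocitrate dehydrogenases Idh2 and Idh3b, which make 2-oxoglutarate, fell by 1.09 (adjusted p = 0.00853) and 0.57 (adjusted p = 0.0385). At an unadjusted p under 0.05, 4 were higher and 4 lower, beside 18.1% and 16.5% of all genes. The lower ones were Idh2, Idh3b, Ahcy and D2hgdh. The higher ones were Mat2a, which makes S-adenosylmethionine, Nnmt, which consumes it, Ahcyl2, a relative of the enzyme that clears its product, and Ogdh, which consumes 2-oxoglutarate.

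A further 3 lists of processes were followed in the same samples, also written with earlier results of these data known. They hold genes that the paper reported from these same samples, such as Il1b, Il6, Nfkb1 and MCM subunits. Their counts are therefore no independent support for those programmes. Over all genes tested, 9.73% were higher and 7.97% lower. Of 20 genes induced through NF-kB, 14 were higher and 0 lower in aged samples, with a median log2 fold change of 0.98, and all 20 had a positive value. The 14 were Nfkbia, Nfkbiz, Nfkb1, Nfkb2, Relb, Bcl3, Birc3, Traf1, Cxcl2, Ccl2, Ccl4, Tnf, Il1b and Il6. Of these, Il6, Ccl4 and Cxcl2 had log2 fold changes of 1.64 (adjusted p = 0.0221), 1.60 (adjusted p = 0.00398) and 1.46 (adjusted p = 0.00779). Of 29 tested cell cycle genes, 17 were lower and 1 (Mki67, at 1.13, adjusted p = 0.0412) was higher, with Tk1 the lowest at -2.08 (adjusted p = 0.00738). The other lower ones were Mcm2, Mcm3, Mcm4, Mcm5, Mcm6, Mcm7, Cdk1, Ccnb1, Ccna2, Rrm1, Tyms, Birc5, Aurkb, Cdc20, E2f1 and Gins2. Of 18 tested immediate early and dissociation genes, Ier3 alone was higher, at 0.87 (adjusted p = 0.0327), and 0 were lower (2 at an unadjusted p under 0.05). The heat shock genes Hspa1a and Hspa1b of this list summed to 8797 CPM in young sample A and 6232 CPM in aged sample A, against 40290 to 67160 CPM in the other 4 samples. The sum of the 14 genes of the list outside the heat shock family was not low in set A. It was 13932 CPM in young sample A and 18447 CPM in aged sample A, against 12241 to 19149 CPM elsewhere. Single genes went both ways in the young samples. Atf3 was at 466 CPM in young sample A against 1238 and 809 CPM in B and C, and Ier3 at 3763 against 2863 and 2605 CPM. The share of these programmes in the differences of the erasers and writers was not tested.

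**Figure D4:**
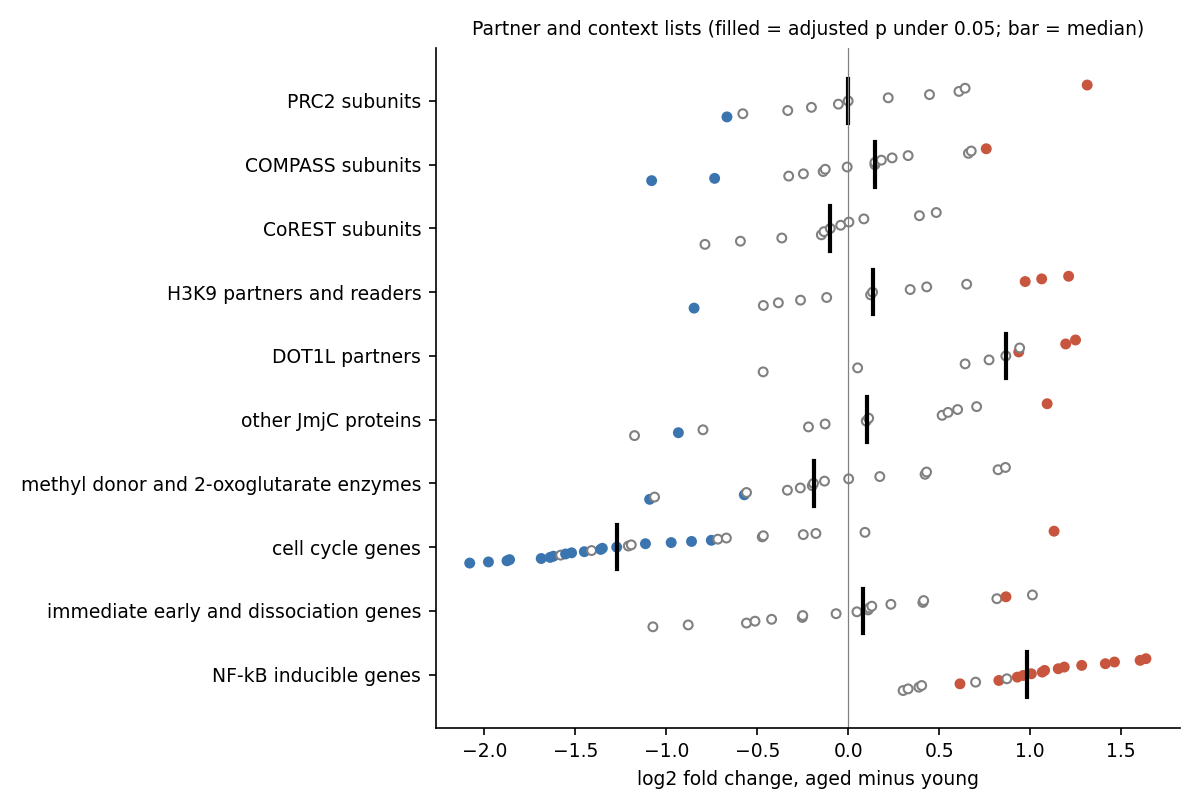
Log2 fold change (aged minus young) of each tested gene in 10 lists of partners and context genes, filled where the adjusted p was under 0.05, with a black bar at the median of the list. The lists were written with earlier results of these data known. NF-kB inducible genes lie right of 0 with a median of 0.98, and cell cycle genes lie mostly left of 0 with a median of -1.27. The enzyme partner lists lie on both sides. Their highest median, 0.87, is that of the list labelled DOT1L partners, which also holds elongation factors.

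Promoters of the members were taken from RefSeq (GRCm38.p6), in windows of 300 bases, and 46 windows were found for 36 of the 50 members. Among the called members there was no entry for Kdm6b or Prdm2. Stretches before the start sites of 2 members that rose and 2 that fell are shown, since they let the density of CG dinucleotides, in capitals, be compared between the directions. They are cut to bases outside the gene in the authors' annotation and lie at chr4:136602725-136602973 for Kdm1a, chr6:39206791-39207023 for Kdm7a, chr14:59440886-59441130 for Setdb2 and chr1:189922365-189922541 for Smyd2, all on the minus strand.
Kdm1a: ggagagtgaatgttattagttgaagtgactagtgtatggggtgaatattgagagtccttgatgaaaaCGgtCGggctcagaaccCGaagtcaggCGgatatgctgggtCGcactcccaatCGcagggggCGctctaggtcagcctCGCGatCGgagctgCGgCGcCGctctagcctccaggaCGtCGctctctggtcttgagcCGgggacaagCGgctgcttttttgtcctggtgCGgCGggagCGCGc
Kdm7a: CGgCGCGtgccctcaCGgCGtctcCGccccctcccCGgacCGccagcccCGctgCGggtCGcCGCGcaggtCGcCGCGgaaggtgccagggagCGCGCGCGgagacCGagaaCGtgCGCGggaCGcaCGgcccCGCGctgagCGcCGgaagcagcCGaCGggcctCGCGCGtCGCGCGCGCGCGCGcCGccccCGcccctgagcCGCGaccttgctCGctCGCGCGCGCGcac
Setdb2: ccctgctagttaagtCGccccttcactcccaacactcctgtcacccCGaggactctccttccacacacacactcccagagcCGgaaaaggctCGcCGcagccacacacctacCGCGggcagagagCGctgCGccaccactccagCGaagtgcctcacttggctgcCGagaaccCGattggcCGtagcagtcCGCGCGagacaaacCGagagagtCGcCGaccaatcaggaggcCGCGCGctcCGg
Smyd2: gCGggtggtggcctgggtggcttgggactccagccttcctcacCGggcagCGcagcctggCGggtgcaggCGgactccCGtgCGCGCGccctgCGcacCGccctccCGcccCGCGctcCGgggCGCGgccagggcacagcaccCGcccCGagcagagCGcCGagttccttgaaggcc
The windows of 300 bases held 29 CG dinucleotides for Kdm1a, 65 for Kdm7a, 29 for Setdb2 and 43 for Smyd2, so that no order separated the members that rose from those that fell. The median was 28 over the windows of the members and 7 over all 32851 promoters. The 3 motifs below were searched on both strands. The E2F words TTTCCCGC and TTTGGCGC were found in 4.35% of the members' windows (Ezh2 and Kmt5c) and in 1.56% of all, the kappaB consensus in 10.9% and 8.46%, and the E-box word CACGTG in 10.9% and 7.15%. The kappaB share was 21.4% for the erasers (3 of 14 windows) and 6.25% for the writers (2 of 32), and the E-box share 14.3% and 9.38%. Of the called members with an entry, only Ehmt2 held any of these, the E-box word in both of its windows.

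The calls rested on the samples unevenly. Leaving out each sample in turn, every one of the 9 called members kept its direction in all 6 fits. The adjusted p stayed under 0.05 in 5 of 6 fits for Kdm5c and Setdb2, in 4 for Smyd2, in 3 for Kdm6b, Kdm7a and Prdm2, in 2 for Kdm1a and Kmt5a and in 1 for Ehmt2. The calls over the whole table moved too. Without young sample C no member passed, and 1.24% of all genes were higher and 0.548% lower. Without young sample B, 1 eraser (Kdm5c) was higher and 2 writers (Setdb2 and Smyd2) were lower, where 3.57% of all genes were higher and 2.71% lower. Without aged sample C, Kdm5c was higher and Setdb2 lower, where 2.87% and 1.58% of all genes were. Aged sample B had the highest sums of keratinocyte and fibroblast markers. Without it, 3 erasers and 1 writer were higher and 2 writers were lower, where 7.32% of all genes were higher and 4.98% lower. Without young sample A the counts were 5 erasers and 5 writers higher and 3 writers lower, where 13% of all genes were higher and 9.29% lower, and without aged sample A they were 4 and 2 higher and 2 lower, where 7.05% and 4.26% of all genes were. With both samples of set A left out, chosen after the data were seen, all 9 called members passed in the same direction, and the counts were 5 erasers and 6 writers higher and 4 writers lower, where 14.5% of all genes were higher and 10.2% lower.

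**Figure D5:**
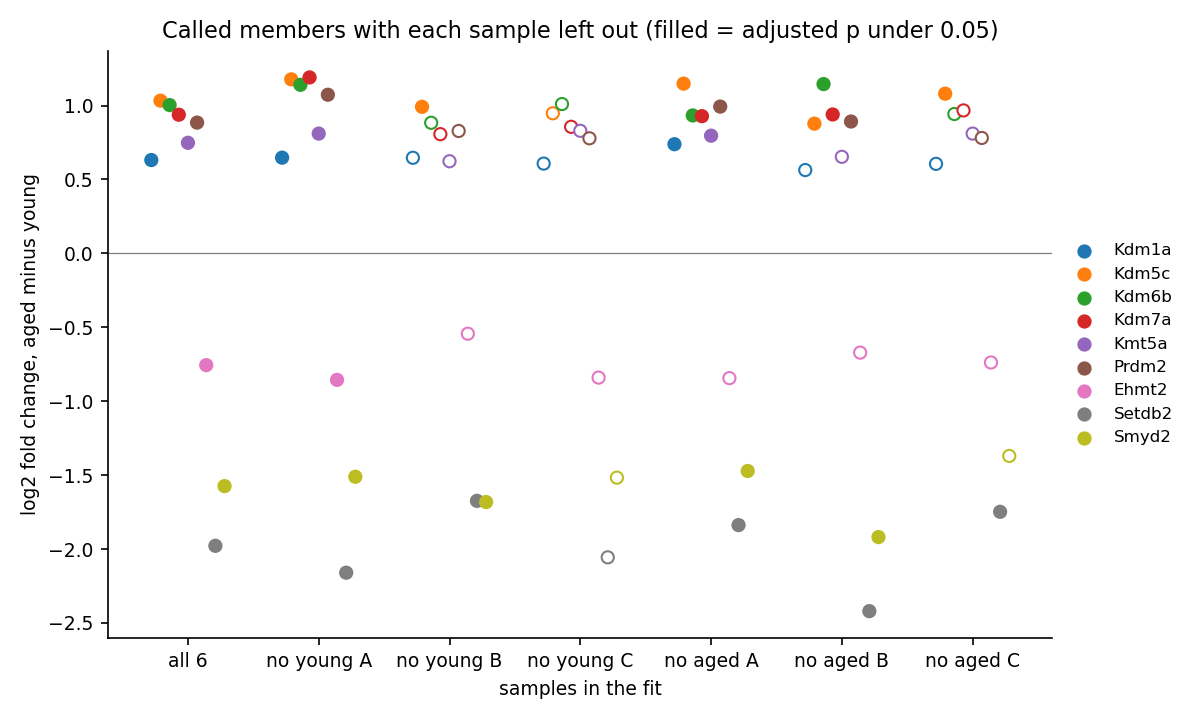
Log2 fold change (aged minus young) of the 9 called members in the fit of all 6 samples and in 6 fits with 1 sample removed each, filled where the adjusted p was under 0.05. No point crosses 0, and all points are open without young sample C.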

How the data were processed

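Bulk RNA of sorted Day 3 wound macrophages was sequenced on a NovaSeq6000 with paired ends. Alignment by the authors used STAR (2.7.3a) and mm10, and they quantified reads on Ensembl transcripts (release 102) in Partek Flow and deposited expected counts per gene without normalisation. The smallest row total was 10. Whether counting used strand is not stated in the sources used here. The authors' second table, which holds their DESeq2 comparison and counts scaled by it, was not used.

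After rounding, the expected counts were tested with edgeR 4.0.16 in R 4.3.3 (TMM scaling, filterByExpr by age, quasi-likelihood test, Benjamini-Hochberg adjustment over 11878 genes). Genes with an adjusted p under 0.05 count as called. Total counts of 15270103 to 17927483 per sample set the precision of low genes. Members and lists were chosen with earlier results of these data known, and, beside Kdm4d, Kdm5d and Smyd1, which were not analysed, 1 further gene of these families is not reported here. Per-sample values are given for called members, for the member of each family with the largest log2 fold change and for members with a primer pair. From the lists of partners and processes, called genes are named, or else the highest and lowest. The marker lists are given mainly as sums over each sample. Exon lengths and overlaps came from GENCODE M21 and covered 98.3% of tested genes. The alternatives were DESeq2 1.42.0, DESeq2 size factors in edgeR, limma-voom (limma 3.58.1) with sample quality weights, other filters, the set letter as a block, each sample left out and, added after the data were seen, spline trends on length and GC content and both samples of set A left out. The fits were tested on simulated data, and no result of those tests is reported here. Python 3.11.15 drew the plots.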

Additional observations from a re-analysis of the deposited data

How the results depend on the processing

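The 9 called members kept their direction under every alternative run. Over the 72 values from settings other than removing 1 sample 69 stayed on the same side of the threshold, and the other 3 were those of Ehmt2 (adjusted p = 0.0512 with DESeq2 size factors, 0.0575 without a filter and 0.0661 with the set letter as a replicate block). Limma-voom with sample quality weights called 8 erasers higher, 8 writers higher and 5 writers lower, and 1933 genes higher and 1713 lower over the whole table. The cause was not tested. The median log2 fold change of the erasers was 0.23 with spline trends on length and GC content, and that of the writers 0.11 with at least 10 counts in every sample, where fewer genes were tested. With both samples of set A left out, 6 writers and 1735 genes of the whole table were higher, and the median of the writers was 0.13. Kdm6b, at a log2 fold change of 1.003, was under 1 in 3 of the fits with 1 sample removed (0.88 without young sample B, 0.93 without aged sample A and 0.94 without aged sample C), and Kdm5c in 3 (0.99 without young sample B, 0.95 without young sample C and 0.88 without aged sample B). Leaving out each sample in turn gave 0 to 5 erasers higher, 0 to 5 writers higher and 0 to 3 writers lower, 151 to 1574 genes higher and 67 to 1128 lower, and medians from 0.38 to 0.65 for erasers and from -0.014 to 0.19 for writers. The lowest counts came without young sample C.

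The set letters, whose meaning is not stated, were not taken to pair the samples, since the correlation of same-letter deviations from the group means was 0.18 for A, -0.02 for B and 0.11 for C, and not every sample correlated best with its own letter. Both samples of set A were nonetheless lower in the heat shock transcripts Hspa1a and Hspa1b than the other 4. With the letter as a replicate block 4 erasers and 3 writers were higher (Dot1l the added one, log2 fold change 1.04, adjusted p = 0.0422), 2 writers were lower (Ehmt2 lost), and 1202 genes were higher and 912 lower.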
